A study of Mus musculus with 8 samples.

Results

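Galectins are lectins that bind β-galactosides on glycoproteins, and galectin-3 binding protein is a secreted glycoprotein that they recognise. The group described here held 6 genes, Lgals1, Lgals3, Lgals3bp, Lgals4, Lgals8 and Lgals9. Its members were all probes whose RefSeq accession on the array mapped to 1 of those 6 symbols, irrespective of their signal. This gave 9 probes on 18 spots of each array, out of 56605 probes and 22911 named genes. All 6 genes were tested among the 29362 features that passed the filter on dim probes, and 8 of the 9 probes were well above background in all 16 animals.

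The arrays compared right fronto-parietal cortex of 16 mice in 4 groups of 4. The genotypes were floxed mice, which served as the reference, and mice deficient in Il6 derived from microglia, the resident macrophages of the brain, called Il6-deficient here. In each genotype 1 group was a control and 1 group had a cryolesion, a freeze injury of the cortex, and ipsilateral cortex was dissected. No source used here names the floxed allele, the promoter driving the recombinase, the deleted part of Il6, the strain, sex and age of the mice or the time after the lesion. Each of the 8 arrays held total RNA of 2 animals in 2 colours, and the 8 arrays closed a loop with 4 sides of 2 arrays each. The control side paired the genotypes without lesion and the lesion side paired them after cryolesion. The floxed-lesion side set floxed cryolesioned animals against Il6-deficient controls, and the deficient-lesion side set Il6-deficient cryolesioned animals against floxed controls. No array held control and cryolesioned animals of 1 genotype, so both cryolesion effects were estimated through the loop.

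In single animals 59.2% to 65.9% of the probes exceeded background clearly, and 1 slide and 1 scan held all arrays. Markers of cortical tissue were present: all 10 neuron, 10 astrocyte and 10 oligodendrocyte markers were tested. The brighter Il6 probe was well above background in 3 of the 4 floxed cryolesioned animals and in none of the other groups. With the deleted part of Il6 unnamed, this probe does not check the genotype. Xist, a transcript of the inactive X chromosome in female cells, was above background in 3 floxed controls and 1 Il6-deficient control and in no cryolesioned animal. With its ratio on each array as a covariate, the same number of galectin genes, 3, passed the test for each cryolesion comparison. Xist was detected only among controls, so this covariate cannot tell sex and cryolesion apart. The part of sex in the galectin changes was not tested.

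Galectin-1, encoded by Lgals1, is the prototype of the family, with a single carbohydrate-recognition domain, and pairs with itself to cross-link glycans. Galectin-3, encoded by Lgals3, is the chimera type: its recognition domain is joined to a long flexible tail through which it forms oligomers. Galectin-4, galectin-8 and galectin-9 are tandem-repeat types with a pair of different recognition domains in 1 chain. In the injured brain galectin-1 and galectin-3 are known from reactive glia and phagocytes, galectin-3 and galectin-8 bind exposed glycans of damaged lysosomes, and Lgals3bp and Lgals9 belong to the genes that interferons can induce.

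After cryolesion Lgals3, Lgals1 and Lgals3bp were higher in both genotypes, Lgals3 by far the most. Lgals3 rose 11.8-fold in floxed and 8.10-fold in Il6-deficient animals, Lgals1 3.04-fold and 2.76-fold, and Lgals3bp 1.77-fold and 2.40-fold. Thus 3 of the 6 genes passed the test as higher in each genotype and 0 as lower (limma, Benjamini-Hochberg adjusted p under 0.05 over all features). Among all features 3.05% passed in floxed animals, 1.86% as higher and 1.19% as lower. In Il6-deficient animals 2.73% passed, 1.67% as higher and 1.07% as lower. The 6 genes had a median log2 change of 0.59 in the floxed and 0.88 in the Il6-deficient comparison, against -0.01 over all features in both. The members were chosen with earlier results of these data known, so these figures describe the group and do not test it against all features. Neither genotype comparison called any galectin gene or any other feature. Lgals4, Lgals8 and Lgals9 did not pass the test in any comparison.

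**Figure D1:**
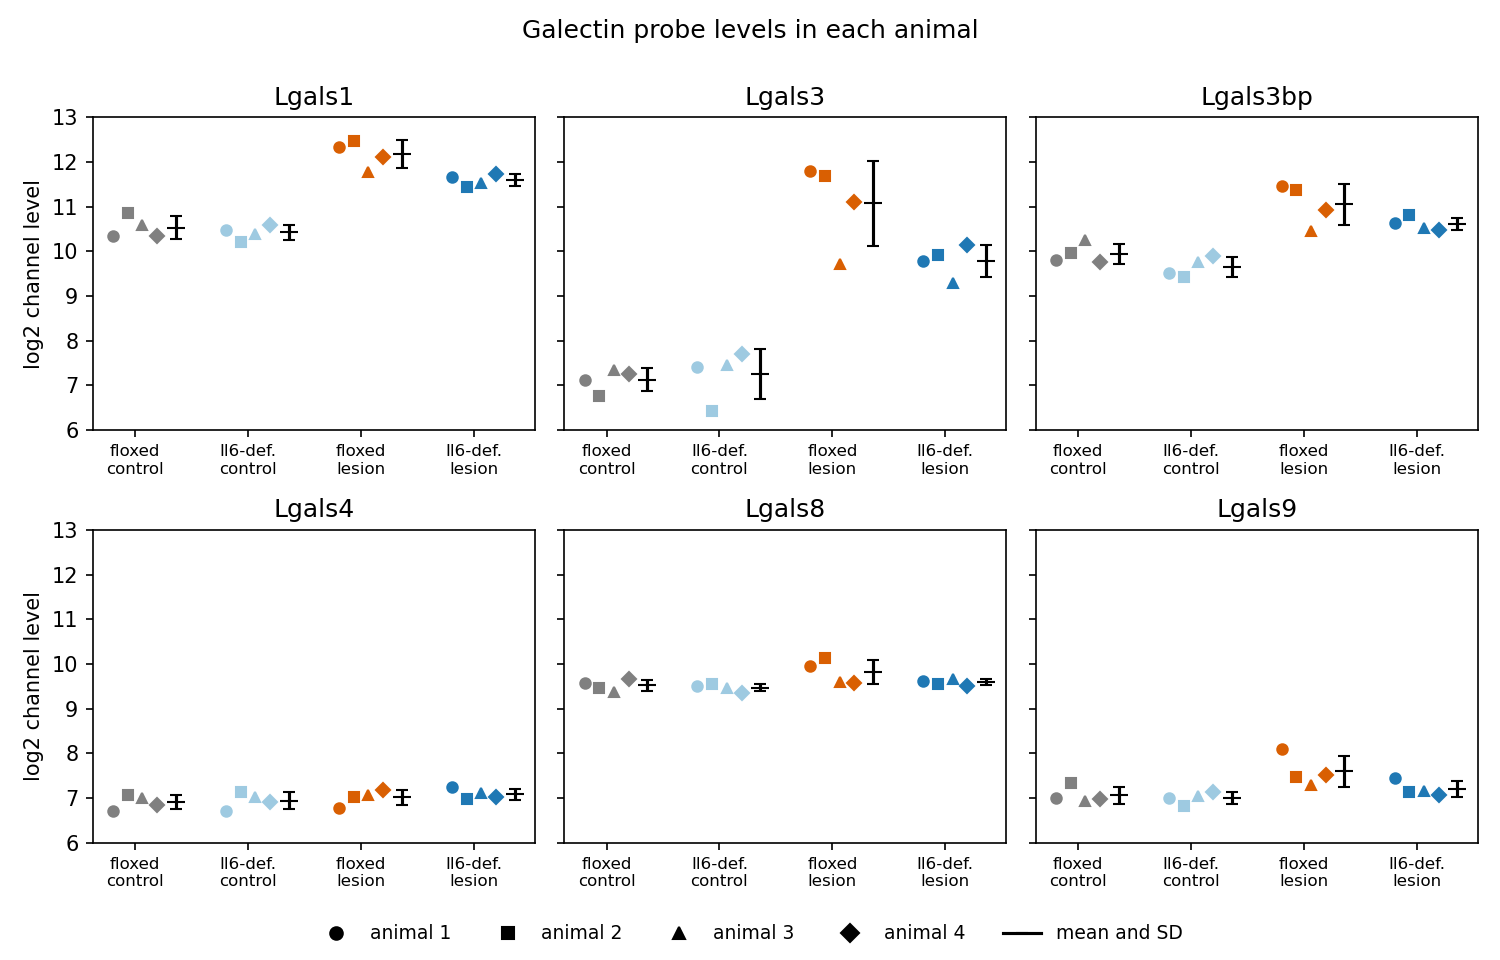
Log2 channel level (y axis) of the 6 galectin genes in each of the 16 animals, by group (x axis), with 1 marker shape for each animal number and the group mean and SD (n = 4) in black beside the points. For Lgals1, Lgals3 and Lgals3bp all cryolesioned animals lie above all control animals, and Lgals4 stays between 6.70 and 7.25 in all 16 animals.

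Lgals3 is represented by a pair of probes. Levels are given on the log2 scale of the normalized channel signal and are compared between animals for 1 probe at a time, never between genes. On the brighter probe, used for the gene, the floxed controls measured 7.11, 6.76, 7.35 and 7.26, and the Il6-deficient controls 7.41, 6.43, 7.46 and 7.69. The floxed cryolesioned animals measured 11.80, 11.69, 9.71 and 11.10. The Il6-deficient cryolesioned animals measured 9.77, 9.92, 9.29 and 10.14. Every cryolesioned animal thus lay above every control, and the third floxed cryolesioned animal lay within the range of the Il6-deficient cryolesioned group while the other 3 lay above it. In order of mean level the groups were floxed control (7.12 ± 0.26, SD, n = 4), Il6-deficient control (7.24 ± 0.56), Il6-deficient cryolesioned (9.78 ± 0.36) and floxed cryolesioned (11.07 ± 0.96). The first pair and the last pair overlapped.

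The fitted log2 change of Lgals3 was 3.56 ± 0.27 (SE, 95% interval 2.92 to 4.20, limma adjusted p = 0.00371) in floxed animals. It was 3.02 ± 0.27 (2.38 to 3.66, adjusted p = 0.00674) in Il6-deficient animals. By size of the rise it stood 13th and 18th among all features tested. The differences between the group means of the levels were 3.96 and 2.53, so the estimates through the loop lay closer together than the levels did. The second Lgals3 probe was spotted 10 times on each array, and its log2 ratio varied over those spots with an SD of 0.07 to 0.14. It gave 3.11 ± 0.34 (adjusted p = 0.00958) and 2.70 ± 0.34 (adjusted p = 0.0145), and its levels showed the same gap between control and cryolesioned animals.

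The ratios of single arrays show where the Lgals3 estimates come from. The floxed cryolesioned animals exceeded the Il6-deficient controls beside them by 4.34 and 4.00 on the log2 scale. The Il6-deficient cryolesioned animals exceeded the floxed controls beside them by 1.94 and 2.88. Where both genotypes were cryolesioned, the floxed animal was lower by 0.06 on the first array, which held the third floxed animal, and higher by 1.18 on the second. The repeated probe gave 4.01 and 3.92, 1.58 and 2.11, and for the lesion side -0.10 and 1.09 in the same direction. On the brighter probe, the 4 controls hybridised beside a cryolesioned animal averaged 7.44 (7.26 to 7.69) and the 4 hybridised beside another control 6.92 (6.43 to 7.41). On the repeated probe these averages were 6.72 and 6.63. The part of the array partner in the control levels was not tested.

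**Figure D2:**
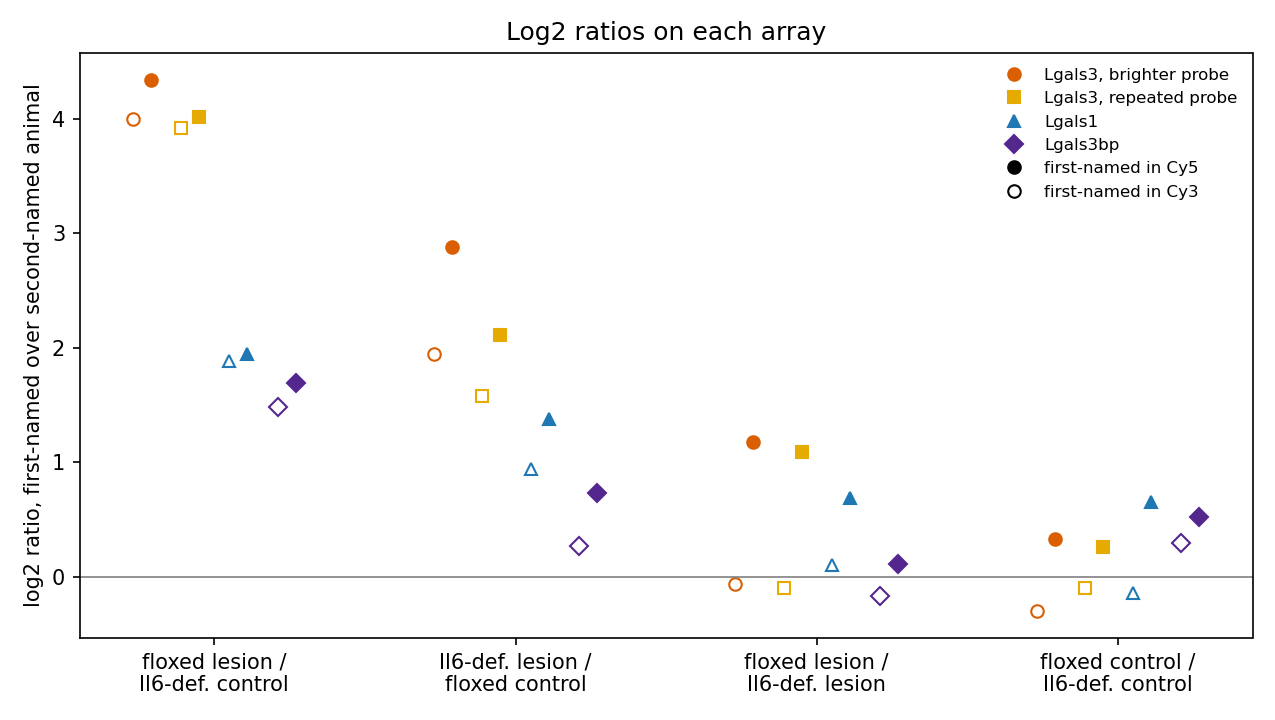
Log2 ratio on each of the 8 arrays (y axis), turned so that the first-named group of each side of the loop (x axis) is the numerator, with filled markers for that group in Cy5 and open markers for Cy3. Both Lgals3 probes lie highest on the floxed-lesion side, at 3.92 to 4.34, and the lesion side holds values on both sides of 0.

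Lgals1 has 1 probe. The floxed controls measured 10.33, 10.86, 10.58 and 10.35 and the Il6-deficient controls 10.47, 10.21, 10.39 and 10.59. The floxed cryolesioned animals measured 12.33, 12.47, 11.77 and 12.12, and the Il6-deficient cryolesioned animals 11.67, 11.43, 11.52 and 11.73. The control groups overlapped (10.53 ± 0.25 and 10.42 ± 0.16), whereas the floxed cryolesioned group (12.17 ± 0.31) lay wholly above the Il6-deficient cryolesioned group (11.59 ± 0.14). The fitted log2 rise was 1.61 ± 0.13 (1.30 to 1.91, limma adjusted p = 0.00424) in floxed animals. In Il6-deficient animals it was 1.47 ± 0.13 (1.16 to 1.77, adjusted p = 0.00653). In rank of rise Lgals1 stood 165th and 193rd among all features.

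Lgals3bp encodes the galectin-3 binding protein, a secreted protein with a scavenger receptor domain, and also has 1 probe. Its levels were 9.80, 9.95, 10.25 and 9.75 in floxed controls and 9.51, 9.43, 9.76 and 9.90 in Il6-deficient controls. After cryolesion they were 11.45, 11.38, 10.46 and 10.92 in floxed animals and 10.63, 10.80, 10.53 and 10.48 in Il6-deficient animals. The lowest cryolesioned animal, the third floxed one at 10.46, was above the highest control at 10.25, and the genotypes overlapped with and without lesion. The group means were 9.94 ± 0.23 and 9.65 ± 0.22 without lesion and 11.05 ± 0.46 and 10.61 ± 0.14 after it (floxed first). The fitted log2 rise was 0.82 ± 0.16 (0.45 to 1.20, limma adjusted p = 0.0456) in floxed animals. It was 1.26 ± 0.16 (0.88 to 1.64, adjusted p = 0.0158) in Il6-deficient animals. The order of the genotypes was the other way in the levels, whose group means differed by 1.11 in floxed and 0.96 in Il6-deficient animals, and in a fit of each colour as a channel of its own, the separate-channel fit (1.05 ± 0.18 and 1.02 ± 0.18).

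The Lgals3bp call in floxed animals was near the threshold. It was lost without any single array except the first of the deficient-lesion side (adjusted p from 0.0516 to 0.170), with the change between 0.72 and 0.95 in all 8 cases. In Il6-deficient animals the Lgals3bp call was lost without the first array of the control side (adjusted p = 0.0617), of the floxed-lesion side (0.0649) and of the lesion side (0.0517), and without the second array of the lesion side (0.0741) and of the deficient-lesion side (0.0684). Without the second lesion-side array Lgals1 and Lgals3 also missed the threshold in Il6-deficient animals, both at an adjusted p of 0.0520 with changes of 1.49 and 2.98, so that 0 galectin genes remained called there and 37 features in all. Without the first lesion-side array, which held the third floxed cryolesioned animal, 2 galectin genes were called in each genotype.

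**Figure D3:**
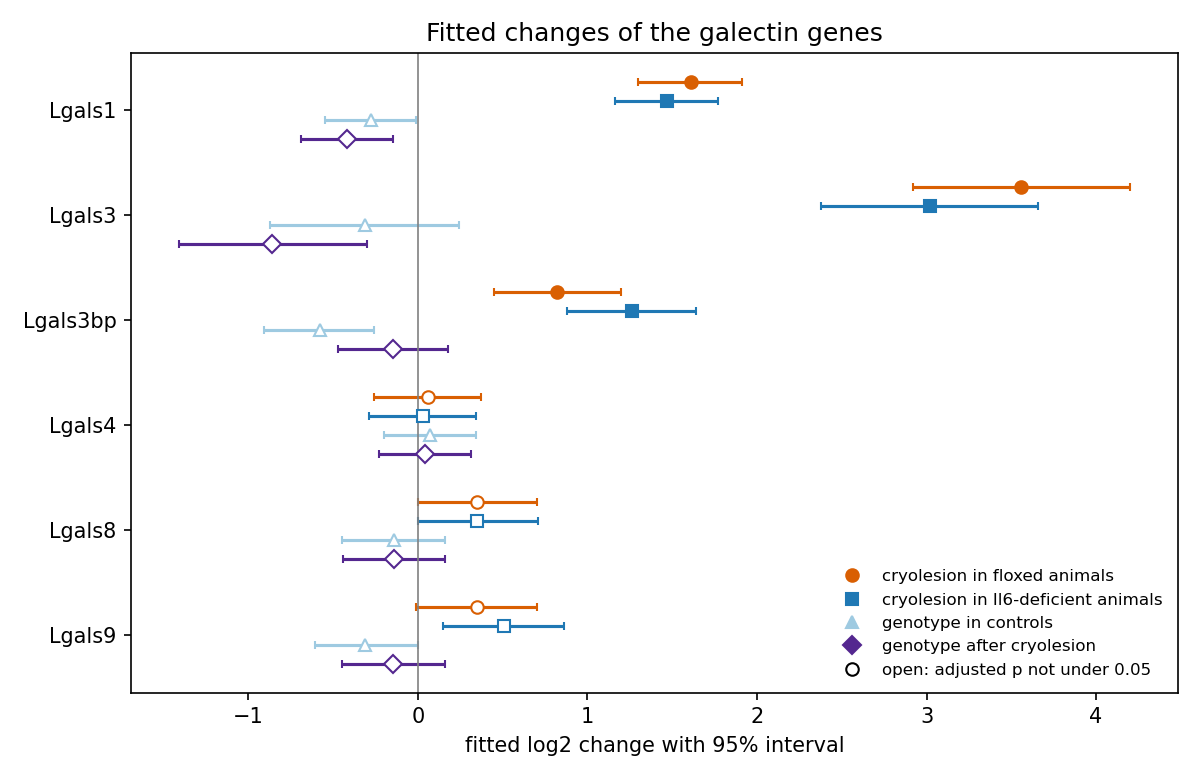
Fitted log2 change with its 95% interval (x axis) for each gene (y axis) in the comparisons of cryolesion and of genotype, with filled markers for an adjusted p under 0.05. The filled markers are those of Lgals1, Lgals3 and Lgals3bp after cryolesion, and all genotype markers are open, the lowest being Lgals3 after cryolesion at -0.86.

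The tandem-repeat galectins did not pass the test. Lgals9, whose product is a reported ligand of the receptor TIM-3, measured 7.00, 7.34, 6.92 and 6.97 in floxed controls and 6.99, 6.81, 7.05 and 7.14 in Il6-deficient controls. It measured 8.10, 7.47, 7.28 and 7.51 in floxed and 7.44, 7.13, 7.16 and 7.06 in Il6-deficient cryolesioned animals. The groups overlapped in each comparison, and the first floxed cryolesioned animal stood highest. The fitted log2 changes were 0.35 ± 0.15 (-0.01 to 0.70, limma adjusted p = 0.263) and 0.51 ± 0.15 (0.15 to 0.86, adjusted p = 0.137). In the separate-channel fit the change in floxed animals was 0.49 ± 0.13 and passed (adjusted p = 0.0220), and that in Il6-deficient animals was 0.27 ± 0.13 and did not (adjusted p = 0.231), so the larger estimate lay in the other genotype.

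Lgals8, the galectin that marks damaged vesicles for autophagy, has 2 probes. On the brighter probe the group means were 9.52 ± 0.12 and 9.47 ± 0.08 in floxed and Il6-deficient controls and 9.81 ± 0.27 and 9.59 ± 0.07 after cryolesion. The first and second floxed cryolesioned animals (9.96 and 10.12) stood above all others, and the other two (9.60 and 9.58) lay within the range of the controls. The fitted log2 changes were 0.35 ± 0.15 in both genotypes (limma adjusted p = 0.253 and 0.260), and the second probe gave 0.39 ± 0.11 (0.119) and 0.37 ± 0.11 (0.143). Lgals4, best known from the intestinal epithelium, had group means between 6.90 and 7.08 on its brighter probe. Its changes were 0.06 ± 0.13 (-0.26 to 0.37, adjusted p = 0.867) and 0.03 ± 0.13 (-0.29 to 0.34, adjusted p = 0.943). Its dimmer probe, well above background in 14 of 16 animals, gave -0.17 ± 0.12 and 0.02 ± 0.12. Lgals6, a near copy of Lgals4 in some mouse strains, has no named probe here, and whether the Lgals4 probes also bind it was not tested.

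Exact permutation tests of the levels, 4 animals against 4, gave the smallest two-sided p these 70 splits allow, 0.0286, for Lgals1, Lgals3 and Lgals3bp in both cryolesion comparisons. With Benjamini-Hochberg adjustment over the 24 tests of 6 genes and 4 comparisons these values were 0.0981. The permutation exchanges animals freely and takes no account of the arrays. In the genotype comparisons some animals of the compared groups shared an array, and in the cryolesion comparisons the compared groups lay on different arrays. The levels of the groups did not overlap, with the cryolesioned animals higher, for 3 of 6 genes in floxed animals (7.33% of all features) and 3 of 6 in Il6-deficient animals (8.41% of all features).

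Between the genotypes no galectin gene passed the test. In controls 0 of 6 passed (2 at an unadjusted p under 0.05) and 0% of all features (1299 at an unadjusted p under 0.05), and the fitted log2 changes, Il6-deficient against floxed, ran from -0.58 to 0.07. Lgals3bp was the lowest, at -0.58 ± 0.14 (-0.91 to -0.26, unadjusted p = 0.00401, limma adjusted p = 0.983). No gene had groups of controls that did not overlap with the Il6-deficient animals lower, against 2.21% of all features. After cryolesion 0 of 6 passed (2 at an unadjusted p under 0.05) and 0% of all features (2529 at an unadjusted p under 0.05). The separate-channel fit also called 0 of 6 in both comparisons. Lgals3 changed by -0.86 ± 0.23 (-1.41 to -0.30, unadjusted p = 0.00820, adjusted p = 0.563) and Lgals1 by -0.42 ± 0.11 (-0.69 to -0.15, unadjusted p = 0.00737, adjusted p = 0.563). Lgals1 was the 1 gene of 6 whose Il6-deficient cryolesioned animals all lay below the floxed ones (exact two-sided permutation p = 0.0286, adjusted 0.0981), against 1.34% of all features. No galectin gene had them all above the floxed ones, against 3.12% of all features. For Lgals3 the exact p was 0.114, since the third floxed animal overlapped the other group. The remaining 4 genes lay between -0.15 and 0.04.

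The difference between the genotypes in their response to cryolesion was tested as an interaction, which called 0 of 6 genes (0 at an unadjusted p under 0.05) and 0% of all features (972 at an unadjusted p under 0.05) in limma. Its log2 estimates were -0.54 ± 0.38 (-1.45 to 0.36) for Lgals3, -0.14 ± 0.18 (-0.57 to 0.30) for Lgals1 and 0.44 ± 0.23 (-0.10 to 0.97) for Lgals3bp, each with a limma adjusted p of 1.00. These estimates moved with the fit. In the separate-channel fit they were -1.24 ± 0.48 for Lgals3 and -0.03 ± 0.25 for Lgals3bp (adjusted p = 0.999 for both), so the direction for Lgals3bp was not stable. Leaving out 1 array at a time, the Lgals3 estimate ran from -1.07 to -0.17.

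RefSeq promoter windows on GRCm38.p6 were matched for 5 of the 6 genes, all but Lgals1. The 250 bases before the start are shown for Lgals3 and Lgals3bp, the matched genes among the 3 that rose, and for Lgals9, with motif matches in capitals.
Lgals3: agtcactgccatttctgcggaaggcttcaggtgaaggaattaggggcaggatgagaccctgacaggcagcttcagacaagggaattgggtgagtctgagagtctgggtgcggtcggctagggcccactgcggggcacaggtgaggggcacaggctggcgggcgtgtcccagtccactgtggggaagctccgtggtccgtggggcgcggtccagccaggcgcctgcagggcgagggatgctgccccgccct
Lgals3bp: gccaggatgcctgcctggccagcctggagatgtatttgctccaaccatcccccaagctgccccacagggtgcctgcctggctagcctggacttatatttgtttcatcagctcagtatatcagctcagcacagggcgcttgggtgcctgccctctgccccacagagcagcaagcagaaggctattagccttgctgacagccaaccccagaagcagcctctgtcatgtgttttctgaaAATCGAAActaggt
Lgals9: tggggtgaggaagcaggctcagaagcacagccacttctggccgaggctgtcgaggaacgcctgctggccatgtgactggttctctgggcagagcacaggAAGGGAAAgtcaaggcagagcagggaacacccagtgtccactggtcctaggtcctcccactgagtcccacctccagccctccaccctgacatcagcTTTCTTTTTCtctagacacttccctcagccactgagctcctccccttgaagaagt
They lie at chr14:47373610-47373859 on the plus strand, chr11:118401960-118402209 on the minus strand and chr11:78984925-78985174 on the minus strand, each written 5′ to 3′ along the gene. They were searched on both strands for the interferon-stimulated response element GAAANNGAAA, the interferon regulatory factor element AANNGAAA contained in it, the STAT element TTCNNNGAA and the AP-1 element TGANTCA. Lgals3bp holds AANNGAAA at 14 to 7 bases before the start. Lgals9 holds GAAANNGAAA on the opposite strand at 55 to 46 bases before the start, which overlaps a match of AANNGAAA, and a further AANNGAAA at 151 to 144 bases. None of the 4 motifs is in the Lgals3, Lgals4 or Lgals8 window. Over all 32851 windows of this length, 2.98% hold GAAANNGAAA, 21.3% AANNGAAA, 7.02% TTCNNNGAA and 6.75% TGANTCA, so a match of AANNGAAA alone is common.

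The levels of Lgals1, Lgals3 and Lgals3bp followed each other over the 16 animals. Pearson's r was 0.97 between Lgals1 and Lgals3 and 0.95 between Lgals3bp and either of them. After subtraction of each group's mean it was 0.65 for Lgals1 with Lgals3 and 0.80 for Lgals3 with Lgals3bp. These are descriptions over animals that share arrays in pairs and, in the first case, the contrast of control with cryolesioned animals. Lgals9 followed them at 0.76 to 0.79, Lgals8 at 0.68 to 0.69 and Lgals4 at 0.22 to 0.33.

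The named genes whose levels were most like a member's over the 16 animals were found by the same Pearson's r. For Lgals3 they were P2ry6, a receptor for UDP, and the filamin Flnc (both r = 0.99), followed by Emp1, the annexin Anxa2 and the inhibitory receptor Lilrb4a (all 0.98). For Lgals1 they were Cyth4, Ifitm7, the actin-nucleation subunit Arpc1b, the exchange factor Vav1 and Nubp1 (all 0.98). For Lgals3bp they were the hexokinase Hk3 (0.97) and Ifi35, the lysosomal enzyme Gusb, Bcl2a1d and the peptide transporter Tap1 (all 0.96). The fitted log2 change in floxed and Il6-deficient animals was 3.15 and 2.88 for Flnc, 3.58 and 3.38 for Emp1, and 3.63 and 3.30 for Lilrb4a. It was 0.92 and 1.33 for Tap1 and 1.00 and 1.13 for Ifi35. For Lgals9 the actin-binding Pfn1 (0.95) and Rhod (0.94) came first, for Lgals8 the small GTPase Arf6 (0.92) and for Lgals4 Tmc4 (0.80).

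Other genes of the galectin system were taken as lists. None of the 5 other galectin-family genes tested (Lgals2, Lgals7, Lgals12, Lgalsl and Grifin) passed in limma after cryolesion, 0 also at an unadjusted p under 0.05, and their log2 changes ran from -0.09 to 0.39 in floxed and -0.25 to 0.36 in Il6-deficient animals. Of 20 receptors and ligands of galectins 3 rose in each genotype and 0 fell, with a median of 0.02 in floxed and 0.21 in Il6-deficient animals. Among all features 1.86% and 1.67% were called higher. In limma 5 and 7 of the 20 had an unadjusted p under 0.05. Cd44, the hyaluronan receptor, rose by 3.49 ± 0.30 (limma adjusted p = 0.00465) and 3.41 ± 0.30 (0.00653). Ptprc, which encodes the leukocyte phosphatase CD45, rose by 1.20 ± 0.14 (0.0118) and 0.97 ± 0.14 (0.0230), and the lysosomal membrane glycoprotein Lamp2 by 0.68 ± 0.10 (0.0213) and 0.56 ± 0.10 (0.0405). The other 17 receptors and ligands did not pass in either genotype.

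Of 16 enzymes that branch and cap the N-glycans to which galectins bind, none rose. In either direction, 7 in floxed and 5 in Il6-deficient animals had an unadjusted p under 0.05. The same level was reached by 5756 and 5568 of all 29362 features. The galactosyltransferase B4galt2 fell by 0.80 on the log2 scale (SE 0.14, limma adjusted p = 0.0361) in floxed animals and measured -0.52 ± 0.14 (0.115) in Il6-deficient animals. Of 15 genes of the response to damaged lysosomes that were tested, none passed in limma, 3 in each genotype at an unadjusted p under 0.05, with medians of -0.03 and -0.05.

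Among 17 activated phagocyte genes 7 rose and 1 fell in floxed animals, and 6 rose and 1 fell in Il6-deficient animals, with medians of 1.01 and 1.07. The secreted ligand Spp1 rose by 4.12 ± 0.70 (limma adjusted p = 0.0321) in floxed animals and measured 3.33 ± 0.70 (0.0626) in Il6-deficient animals. The cholesterol hydroxylase Ch25h rose by 3.32 ± 0.32 and 2.96 ± 0.32, the scavenger receptor Msr1 by 1.68 ± 0.20 and 1.49 ± 0.20, and the lysosomal Cd68 by 1.39 ± 0.19 and 1.52 ± 0.19. The gene that fell in both was the lipid carrier Apoe, by 1.17 and 0.79, named after its values were seen. Of 21 interferon-stimulated genes 10 rose in floxed and 14 in Il6-deficient animals, and 0 fell. Their median was 1.10 and 1.36. Isg15, a ubiquitin-like modifier, rose by 1.71 ± 0.30 (0.0345) and 1.93 ± 0.30 (0.0284), and Rtp4 by 1.38 ± 0.22 (0.0263) and 1.58 ± 0.22 (0.0208). In neither genotype comparison did a gene of these lists pass, and the interaction called none of them.

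**Figure D4:**
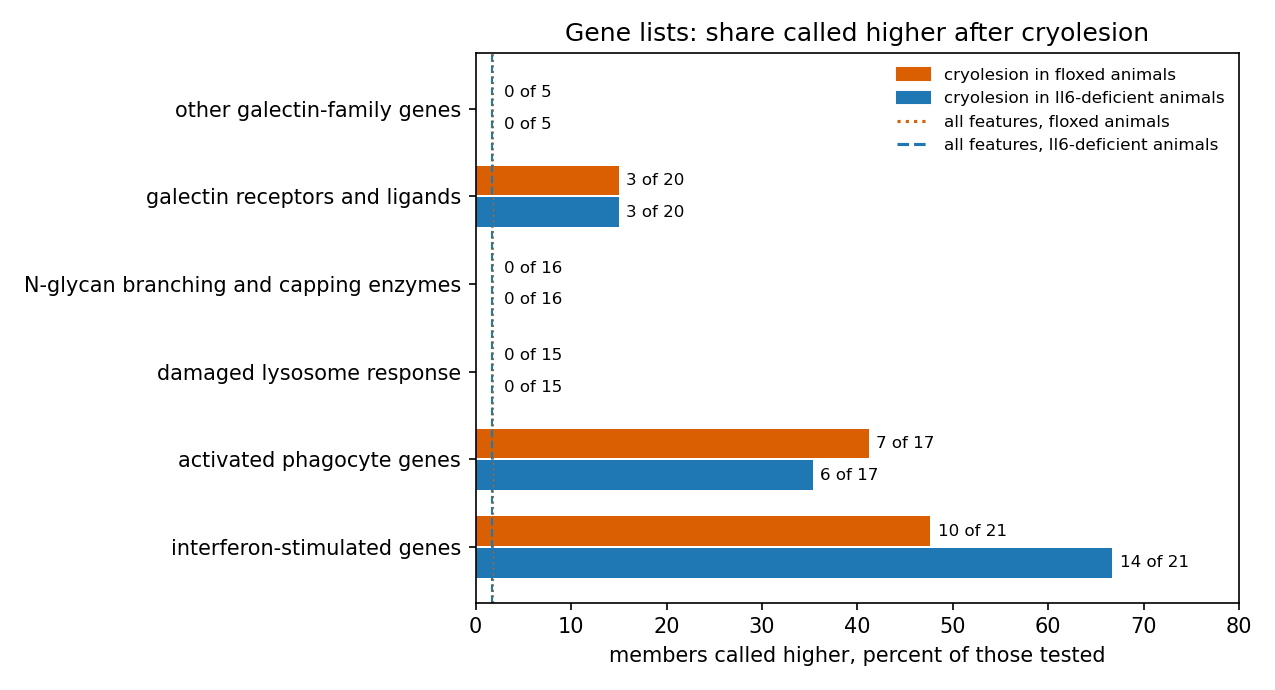
Share of the tested genes of each list that were called higher after cryolesion (x axis, percent), with the count at each bar, for floxed and Il6-deficient animals, and dotted and dashed lines for the share of all features called higher, at 1.86% and 1.67%. The activated phagocyte and interferon-stimulated lists hold the longest bars. All lists were chosen with earlier results of these data known.

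Some markers of infiltrating cells were also higher after cryolesion. Among all features 1.86% in floxed and 1.67% in Il6-deficient animals were called higher. Of 6 neutrophil markers tested, S100a9 and S100a8 rose in both genotypes, by 2.79 ± 0.32 and 2.60 ± 0.36 in floxed and 2.17 ± 0.32 and 1.89 ± 0.36 in Il6-deficient animals. The mean level of those 6 markers ran from 6.74 to 6.96 over the controls, from 7.54 to 8.26 over the floxed and from 7.33 to 7.86 over the Il6-deficient cryolesioned animals. Log2 changes of the 6 had medians of 0.25 (-0.20 to 2.79) and 0.20 (-0.04 to 2.17), floxed first. The mean level therefore does not stand for each of the 6. The neutrophil granule genes Ngp and Ltf and the neutrophil-derived Retnlg did not pass the filter on dim probes. Of 10 monocyte and border macrophage markers only Plac8 passed, rising by 1.41 ± 0.16 and 0.92 ± 0.16. In limma 6 and 4 of the 10 had an unadjusted p under 0.05. Medians of the list were 0.71 (-0.02 to 1.41) and 0.54 (-0.02 to 0.94). The mean of the 10 ran from 7.12 to 7.38 over the controls, from 7.78 to 8.22 over the floxed and from 7.73 to 7.78 over the Il6-deficient cryolesioned animals. Of 10 markers of homeostatic microglia none passed in limma (4 in each genotype at an unadjusted p under 0.05, against 5756 and 5568 of all features). Their medians were -0.19 and 0.09, and their mean level was 10.64 to 11.21 over all animals. Single markers moved in both directions, from -1.64 to 0.49 in floxed and from -1.30 to 0.73 in Il6-deficient animals. Of 5 lymphocyte markers tested none passed in limma (0 at an unadjusted p under 0.05), with medians of 0.04 and -0.06.

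Markers of the other cells of the cortex were called in both directions. Among all features 1.19% in floxed and 1.07% in Il6-deficient animals were called lower. Of 10 astrocyte markers 1 rose and 2 fell in floxed animals (median -0.45), and 2 rose and 2 fell in Il6-deficient animals (median 0.01). Gfap, the filament of reactive astrocytes, rose by 3.50 ± 0.26 and 3.65 ± 0.26, and the transcription factor Sox9 measured 0.69 ± 0.14 (limma adjusted p = 0.0575) and rose by 0.84 ± 0.14 (0.0368). Glutamine synthetase, encoded by Glul, changed by -1.04 ± 0.14 and -0.93 ± 0.14, and the aldolase Aldoc by -1.06 ± 0.10 and -0.65 ± 0.10. Of 10 fibroblast and mural markers Tagln, a smooth-muscle actin-binding protein, rose by 2.44 ± 0.24 and 1.91 ± 0.24. Medians of this list were 0.22 (-0.65 to 2.44) and 0.25 (-0.23 to 1.91), so Tagln does not stand for it. Vtn changed by -0.65 ± 0.09 in floxed animals and measured -0.23 ± 0.09 (adjusted p = 0.234) in Il6-deficient animals. Of 10 neuron markers Camk2a (-0.96 ± 0.15) and Map2 (-0.59 ± 0.11) fell in floxed animals. None passed in Il6-deficient animals (-0.42 ± 0.15 and -0.11 ± 0.11 for these genes). The neuron list had medians of -0.52 (-1.10 to 0.44) in floxed and -0.38 (-0.89 to 0.34) in Il6-deficient animals. The interaction called 0 of the 10 in limma (4 at an unadjusted p under 0.05), with estimates of 0.55 ± 0.22 for Camk2a and 0.48 ± 0.15 for Map2. Of 10 endothelial markers only the transporter Abcb1a passed. Abcb1a changed by -0.85 ± 0.10 in floxed animals and measured -0.46 ± 0.10 (adjusted p = 0.0744) in Il6-deficient animals. The 10 had a median of -0.06 (-1.16 to 0.51) in floxed and 0.46 (-0.49 to 0.89) in Il6-deficient animals, so Abcb1a does not stand for the list. None of 10 oligodendrocyte markers passed in limma (1 in floxed and 4 in Il6-deficient animals at an unadjusted p under 0.05). Their medians were -0.23 (-0.71 to 0.39) and -0.59 (-1.18 to 0.48). None of 5 erythroid markers passed (1 and 0 at that unadjusted level), with medians of 0.34 and 0.12. That level was reached by 5756 and 5568 of all features. In bulk tissue more cells of a type and more RNA per cell cannot be told apart, and the part of these cells in the galectin changes was not tested.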

How the data were processed

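Cortex RNA of 16 mice was hybridised to 8 2-colour Agilent arrays. The authors' deposited scanner files, made with Agilent Feature Extraction 10.7.3.1 per the submitters' processing notes, hold median spot and background intensities, without normalization, and a log10 ratio used only to establish scale and direction. The authors' deposited table of log2 ratios (normalization not given in the sources used here) served as an alternative. Its columns correlated at 0.966 to 0.977 with the ratios computed here, with slopes of 1.11 to 1.25 and medians of 0.0030, -0.0045, 0.0021, 0.0019, 0.0050, 0.0029, 0.0043 and -0.0015 in array order (control, floxed-lesion, lesion and deficient-lesion side), so direction and centring were settled and the exact scale is unknown. The design named mean signals, and medians were used since the files used here hold no mean column.

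Background was corrected with normexp (offset 50) and ratios by loess within arrays, outlier spots were left out, spots of a probe averaged and the brightest probe taken per gene. Probes well above background in at least 4 of 16 channels were tested with limma 3.58.1 in R 4.3.3 (lmFit, eBayes, 3 group coefficients and a dye intercept, 4 residual degrees of freedom, 2.95 prior), with Benjamini-Hochberg adjustment over 29362 features and a threshold of 0.05. The fits were tested on simulated data. Channel levels are after Aquantile normalization. The number of arrays limits the precision. RefSeq accessions named 32994 of 56605 probes. Named genes were all members, the 5 named genes of highest r per member and up to 4 called genes per list. Members and lists were chosen with earlier results of these data known. Exact permutation tests of the levels were added after the data were seen. Replicate numbers were not used to pair animals in the main fit.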

Additional observations from a re-analysis of the deposited data

How the results depend on the processing

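Across 19 alternatives, 548 of 570 galectin log2 changes kept their side of the threshold, 33 of these being uncalled values that changed sign, 19 called changes missed it, 3 came to pass it, and no called change reversed. Lgals1 and Lgals3 passed in floxed animals under all 19, at 1.49 to 1.79 and 3.30 to 4.03, and in Il6-deficient animals under 18. Lgals3bp passed under 8 for floxed mice and 13 for Il6-deficient mice. Leaving out 1 array at a time, the galectin genes called ranged from 2 to 3 in floxed and from 0 to 3 in Il6-deficient animals. The features called then ranged from 57 to 2140 (896 with all arrays) and from 37 to 1187 (803), with 0 to 3 for genotype in controls and 0 to 1 for the interaction. Median centring called 358 features in each genotype, 246 and 181 of them higher, and the scanner software's processed signals 446 in each, 373 and 357 of them higher, against 546 of 896 and 490 of 803. The separate-channel fit called 4766 and 3029, and 1 feature for genotype in controls and 1 after cryolesion. With the replicate block it called 5125 and 3275, again 1 and 1, and 5 galectin genes in floxed animals, Lgals8 (0.30, adjusted p = 0.0460) and Lgals9 (0.50, 0.0231) among them. The cause was not tested. The main fit did not pair animals by replicate number. Deviations of same-numbered animals on other arrays correlated at -0.32 to 0.45, median 0.13. Those of differently numbered animals of other groups on other arrays correlated at -0.54 to 0.49, median -0.01. These ranges overlap, so the check does not settle whether the numbers pair animals. Slide and scan were not run as blocks, since there was 1 of each. The number of arrays, with 4 residual degrees of freedom, limits the precision.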
